A study of Danio rerio with 3 samples.

Results

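Transcripts of 6 genes that the zebrafish oocyte makes for its chromatin, its coat and its dialogue with the ovary were followed in early embryos. Some of the embryos had been injected with a lectin known to block nuclear pores, and no block was measured here. The genes are h1m, npm2a and npm2b (chromatin), zp2.1 (egg coat), and bmp15 and gdf9 (growth factors). They were picked by symbol from a table of 25386 genes. Each symbol matched 1 row, and all 6 reached 1 FPKM (sequenced fragments corrected for transcript length and library total) in every library. The study's question is how blocked nuclear pores bear on zygotic genome activation, when the embryo's own genes are first transcribed.

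Poly(A) RNA came from dechorionated whole wild-type embryos in 3 libraries, 1 in each of 3 groups. The control embryos, for which no treatment is given, were taken at dome stage, 4.3 hours after fertilisation (hpf). The other groups had received wheat germ agglutinin (WGA) by yolk injection as 1-cell embryos, 0.65 ng in 1 nl. WGA is a lectin that binds sugar-bearing nucleoporins and blocks transport through the pore. The early WGA library was taken at 4.3 hpf, which matches the control in time. The late WGA library was taken at 5 hpf, at what the labels call a dome-like stage, and comparing it with the control is called the matched stage here. The early WGA label gives no stage, so at the matched time WGA and a difference in stage cannot be told apart. There is no untreated library at 5 hpf, so at the matched stage WGA and later time cannot be told apart. Differences from early to late WGA likewise cannot be told apart from ordinary change with age. The labels name no mock-injected control, so WGA and injection cannot be told apart. They give neither the number of embryos per library nor their clutch.

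An oocyte stores proteins and messenger RNAs that carry the embryo until its own genome is switched on, after which most stored messages are cleared. H1M is an egg-type linker histone that binds nucleosomes in oocytes and cleavage embryos and gives way to somatic H1 types later. Nucleoplasmins of the Npm2 type are egg histone chaperones, known from Xenopus for storing H2A and H2B and for unpacking sperm chromatin. Zona pellucida (ZP) proteins polymerise into the egg envelope. Bmp15 and Gdf9 are TGF-beta family ligands secreted by the oocyte, which act on the follicle cells around it.

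With 1 library per group there was no replicate error and no test. Differences are log2 ratios of (FPKM + 1), and a gene was counted as higher or lower from 2-fold upward on that scale, if it reached 1 FPKM in a compared library. The same control library enters the matched-time and the matched-stage comparison. By that rule 0 of the 6 genes differed in any of the 3 comparisons. Among all genes tested, 16.2% differed that much at the matched time (7.21% higher and 8.97% lower in WGA). The share was 13.2% at the matched stage (5.3% higher and 7.92% lower) and 1.13% from early to late WGA (0.772% higher and 0.356% lower). With 6 genes, a count of 0 lies close to what those shares give, and nothing particular to the 6 is read from it. In a whole embryo, fewer cells of a type and less RNA per cell cannot be told apart.

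The linker histone transcript h1m (NCBI Gene 327403) was by far the most abundant of the 6. It stood at 558.25 FPKM in the control, 769.72 FPKM in early WGA and 682.46 FPKM in late WGA. Both WGA libraries were thus above the control, the early one more so. Ranked among all genes by FPKM, h1m held rank 49 in the control, rank 16 in early WGA and rank 30 in late WGA. It was 1.38-fold higher than control at the matched time and 1.22-fold higher at the matched stage, and 1.13-fold lower in late WGA than in early WGA. Of 14263 genes tested at the matched time, 3366 had a ratio as high or higher.

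The growth factor bmp15 (334183) was at 14.72 FPKM in the control, 26.24 FPKM in early WGA and 14.98 FPKM in late WGA. Early WGA stood apart and the other libraries were nearly level. Its log2 ratio was 0.79 at the matched time (1.73-fold higher). At the matched stage it was 0.02, or 0.43 with libraries scaled to their ribosomal protein genes. Between the WGA libraries the ratio was -0.77 (1.70-fold lower at 5 hpf), and 192 of 13478 genes had a ratio as low or lower.

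The partner ligand gdf9 (497643) followed the same order at a lower level, with 8.51 FPKM in the control, 13.67 FPKM in early WGA and 9.82 FPKM in late WGA. It was 1.54-fold higher at the matched time and 1.14-fold higher at the matched stage. From early to late WGA it was 1.36-fold lower, and 1138 of 13478 genes had a ratio as low or lower. Bmp15 and Gdf9 are known in mammals to pair with each other, and FPKM is scaled to transcript length, so their levels can be set side by side. The level of bmp15 was 1.73 times that of gdf9 in the control, 1.92 times in early WGA and 1.53 times in late WGA.

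**Figure D1:**
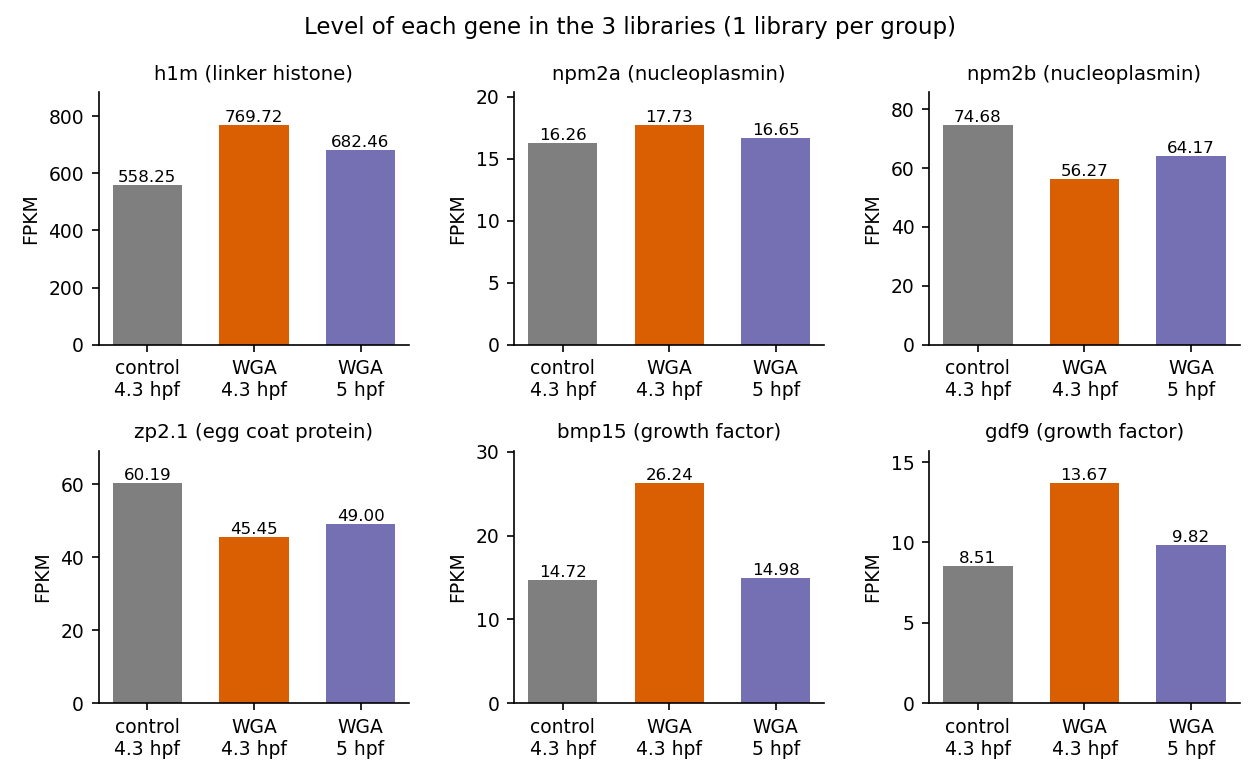
FPKM (y axis, from 0, with its own scale in each panel) of the 6 genes in the control at 4.3 hpf, early WGA and late WGA. Each bar is 1 library, so there are no error bars. h1m, bmp15 and gdf9 were highest in early WGA, npm2b and zp2.1 were lowest there, and npm2a lay between 16.26 and 17.73 FPKM.

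The nucleoplasmin genes stood on different sides of the control. npm2b (555786) was at 74.68 FPKM in the control, 56.27 FPKM in early WGA and 64.17 FPKM in late WGA. Both WGA libraries were below the control, by 1.32-fold at the matched time and 1.16-fold at the matched stage, although both ratios turned positive when libraries were scaled to their ribosomal protein genes (0.31 and 0.21 log2). Between the WGA libraries npm2b was 1.14-fold higher at 5 hpf, with 2165 of 13478 genes as high or higher, and -0.10 log2 under that scaling.

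Its paralogue npm2a (797865) was as deposited the steadiest of the 6, at 16.26 FPKM in the control, 17.73 FPKM in early WGA and 16.65 FPKM in late WGA. Its log2 ratio to control was 0.12 at the matched time and 0.03 at the matched stage. Under ribosomal protein scaling these ratios were 0.81 and 0.44, and npm2b and zp2.1 then lay nearer to the control than npm2a did. npm2b outweighed npm2a in every library, by 4.59 times in the control, 3.17 times in early WGA and 3.85 times in late WGA.

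The egg coat gene zp2.1 (664700) was at 60.19 FPKM in the control, 45.45 FPKM in early WGA and 49 FPKM in late WGA. It thus followed npm2b in order, with both WGA libraries below the control. It was 1.32-fold lower at the matched time and 1.22-fold lower at the matched stage, and 1.08-fold higher in late WGA than in early WGA. All 3 directions turned under ribosomal protein scaling (0.31, 0.13 and -0.18 log2).

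That scaling moved the median log2 ratio of all genes at the matched time from 0.03 to 0.67. Under it h1m, gdf9 and bmp15 passed 2-fold (1.18, 1.31 and 1.49 log2), among 4101 of 14263 genes that passed upward. Ribosomal protein scaling takes the ribosomal protein genes as level across libraries, which was not tested. Its divisors were 0.607 for early WGA and 0.744 for late WGA, with the control at 1. Median-of-ratios divisors were 1.04 for early WGA, 1.003 for late WGA and 0.985 for the control. Such a scaling multiplies all genes of a library by 1 factor, so apart from the pseudocount it cannot alter a ratio taken relative to the median of all genes. On that relative scale, and under ribosomal protein scaling, the matched-time ratio was 0.82 for bmp15, 0.63 for gdf9 and 0.51 for h1m. It was -0.36 for npm2b and -0.36 for zp2.1. Which genes stood above or below the typical gene is thus described, and not whether their amount per embryo differed.

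**Figure D2:**
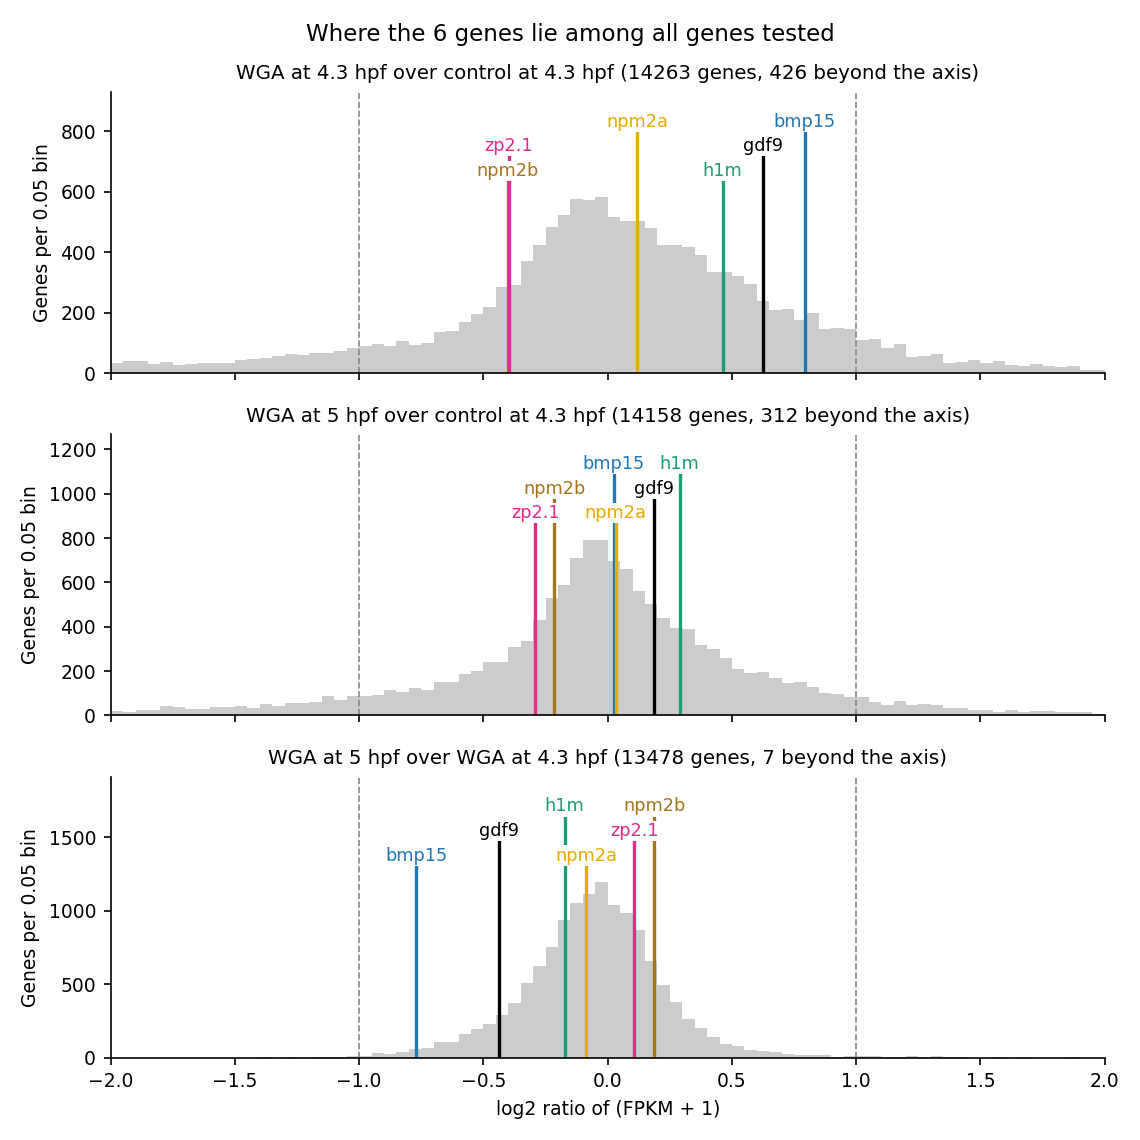
Number of genes (y axis) in each 0.05-wide bin of the log2 ratio of (FPKM + 1) (x axis) for the 3 comparisons, with coloured lines at the 6 genes and dashed lines at 2-fold. No coloured line lies beyond a dashed line, and bmp15 lies in the lower tail of the comparison between the WGA libraries, at -0.77.

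By level the 6 genes kept 1 order in the control and in late WGA, namely h1m, npm2b, zp2.1, npm2a, bmp15 and gdf9. In early WGA bmp15 (26.24 FPKM) stood above npm2a (17.73 FPKM). Without replicates it cannot be said which neighbours in this order differ beyond their spread. The gap that is wide in every library is that below h1m, whose level was 7.48, 13.7 and 10.6 times that of npm2b in the control, early WGA and late WGA.

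The likeness of the patterns was measured as the distance between the log2(FPKM + 1) values of 2 genes over the 3 libraries, after each gene was centred on its own mean. Among the 6, npm2b and zp2.1 were nearest (0.06), followed by h1m and gdf9 (0.19) and by bmp15 and gdf9 (0.23). The 6 were also set against 6723 genes that reached 10 FPKM in some library and had a symbol other than a clone name. Of these, 163 lay nearer to npm2b than zp2.1 did, 950 lay nearer to h1m than gdf9 did and 119 lay nearer to bmp15 than gdf9 did. The nearest such gene was slc39a13 for h1m, clasp2 for npm2a, ncl for npm2b, smarce1 for zp2.1, nfatc2ip for bmp15 and inpp5b for gdf9, at distances of 0.002 to 0.02. nfatc2ip stood at 21.44 FPKM in the control, 37.65 FPKM in early WGA and 21.35 FPKM in late WGA. With only 3 points, nearness says little.

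The other genes of each family were then set beside the 6. Each list's counts and medians include those of the 6 that belong to it. Behind every list count below stand the shares of all genes past 2-fold, 16.2%, 13.2% and 1.13% in the 3 comparisons. Under ribosomal protein scaling 4101 of 14263 genes passed upward and 823 downward at the matched time. Among nucleoplasmins 0 of 5 differed by 2-fold in any comparison, and the median log2 ratio was -0.40 at the matched time, -0.22 at the matched stage and 0.19 between the WGA libraries. The medians over all genes tested were 0.03, -0.02 and -0.05 in that order, and all 3 family medians changed sign under ribosomal protein scaling. npm1a, the nucleolar nucleophosmin, was at 598.98 FPKM in the control, 423.06 FPKM in early WGA and 509.5 FPKM in late WGA. It was thus several times more abundant than npm2b in each library (8.02, 7.52 and 7.94 times). npm3 followed the same order, at 41.43, 25.29 and 33.09 FPKM.

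The linker and variant histone list also holds 2 histone messenger RNA-binding protein genes. Of its 17 measured genes 4 passed 2-fold downward and 1 upward at the matched time, beside 8.97% and 7.21% of all genes. The list's median was -0.45. Under ribosomal protein scaling the median was 0.27, with 1 gene past 2-fold downward and 3 upward.

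The H3.3 gene h3f3a was at 1152.89 FPKM in the control, 401.25 FPKM in early WGA and 578.63 FPKM in late WGA, 2.87-fold lower at the matched time. Among the others past 2-fold downward at that time were h2afx, which encodes the H2A.X of DNA damage signalling (2.52-fold), and zgc:101846, now h2ax1 (log2 ratio -1.05). The higher member was slbp2, a maternal stem-loop binding protein gene for histone messages, at 40.43, 94.6 and 51.64 FPKM in the control and early and late WGA. Its peak in early WGA is the order that bmp15 and gdf9 showed.

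Of the same 17 genes, 2 passed 2-fold downward at the matched stage, h2afx among them, and 1 upward. The higher member was LOC100332229, listed as h2af1al in the NCBI gene table, an H2A-type histone gene. It stood at 261 FPKM in the control, 515.95 FPKM in early WGA and 701.17 FPKM in late WGA, a 2.68-fold difference at the matched stage. From early to late WGA 0 of 16 members differed by 2-fold. The list's median was -0.28 at the matched stage and 0.10 between the WGA libraries, and both signs turned under ribosomal protein scaling.

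**Figure D3:**
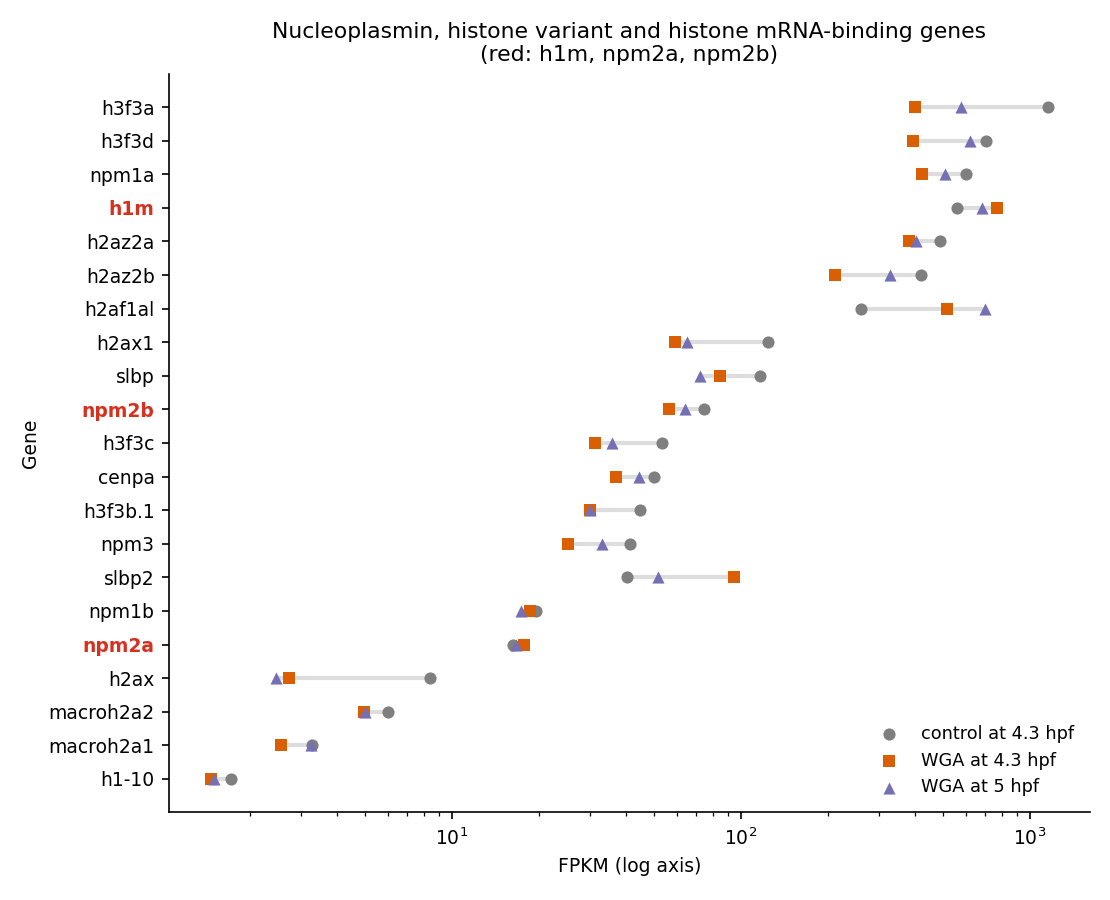
FPKM (x axis, log scale) of nucleoplasmin, linker and variant histone genes and of slbp and slbp2 in the 3 libraries, 1 marker per library, ordered by the control and labelled by current NCBI symbol (h1-10 is h1fx), with 1 gene of the lists not shown. h1m lay above the control in both WGA libraries, and npm2b lay below it in both, a direction that turns under ribosomal protein scaling.

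Of 25 histone chaperone genes 3 were higher and 2 lower past 2-fold at the matched time, with a median of -0.19. Of all genes 7.21% were higher and 8.97% lower. Under ribosomal protein scaling 5 of the 25 were higher and 0 lower, with a median of 0.52. The nucleosome assembly gene nap1l4b was at 12.99 FPKM in the control, 45.32 FPKM in early WGA and 49.03 FPKM in late WGA. It was higher by 3.31-fold at the matched time and 3.58-fold at the matched stage. The other higher members were ubn1, of the HIRA complex that deposits H3.3 (2.28-fold), and asf1bb, an H3-H4 chaperone gene (2.07-fold). The lower members were the acidic nuclear phosphoprotein gene anp32a (2.64-fold) and the prothymosin gene ptmaa (log2 ratio -1.03). At the matched stage nap1l4b was the 1 higher member and anp32a the 1 lower member of 25 (median -0.05, positive under TPM and ribosomal protein scaling). From early to late WGA 0 of 25 differed by 2-fold (median 0.11, -0.18 under ribosomal protein scaling).

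Of 21 measured egg coat (ZP) genes 0 differed by 2-fold in any comparison, beside 16.2%, 13.2% and 1.13% of all genes. At the matched time 16 of 21 lay below control and at the matched stage 18 of 21 did, but under ribosomal protein scaling 0 and 8 did. Of all genes tested, 52.2% lay above control at the matched time and 47.6% at the matched stage. The median was -0.15 at the matched time and -0.29 at the matched stage, both positive under ribosomal protein scaling (0.55 and 0.10), and -0.10 between the WGA libraries. Their levels in the control ran from 1.76 to 77.55 FPKM. The median was 28.95 FPKM in the control, 26.78 FPKM in early WGA and 22.78 FPKM in late WGA. By level zp2.1 ranked 4 of 21 in the control, 3 in early WGA and 2 in late WGA. The most abundant was zp3d.1, at 77.55, 77.62 and 85.35 FPKM in that order of libraries.

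The ZP2-type and ZP3-type genes were compared after their values had been seen, so the split is a description. Of 6 zp2 genes 4 had a positive ratio between the WGA libraries (median 0.17, -0.12 under ribosomal protein scaling). Of 11 zp3 genes 2 had a positive ratio and 9 a negative one (median -0.28, of the same sign under every scaling). Of all genes tested, 41.2% had a positive ratio there. The summed level of the zp2 genes was 203.13 FPKM in the control, 160.83 FPKM in early WGA and 177.6 FPKM in late WGA. That of the zp3 genes was 428.08, 379.85 and 331.49 FPKM. The first of these steps depends on the scaling, since 8 of 11 zp3 genes lay below control at the matched time but 0 did under ribosomal protein scaling. The widest ratio in the family was that of zp3e (listed as zgc:171779), at 60.88, 42.94 and 33.01 FPKM, 1.82-fold lower at the matched stage.

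Related genes beside it limit what can be said of zp2.1 alone. By NCBI's gene order (assembly GRCz12tu), its neighbours on one side are zp2.6, si:zfos-1505d6.3 and zp2.3, and the next gene on the other side is zp2.5. Reads that match several of them may have been shared by estimate, so the split among zp2 genes is uncertain. zp2.2 stood at 49.44 FPKM in the control, 38.88 FPKM in early WGA and 45.59 FPKM in late WGA, and zp2.3 at 33.86, 24.96 and 30.18 FPKM, in the order shown by zp2.1. zp2.5 was at 24.02, 21.91 and 29.16 FPKM, highest in late WGA. By contrast zp2.6 (17.84, 17.03 and 12.02 FPKM) and zp2l1 (17.78, 12.6 and 11.65 FPKM) were lowest in late WGA.

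**Figure D4:**
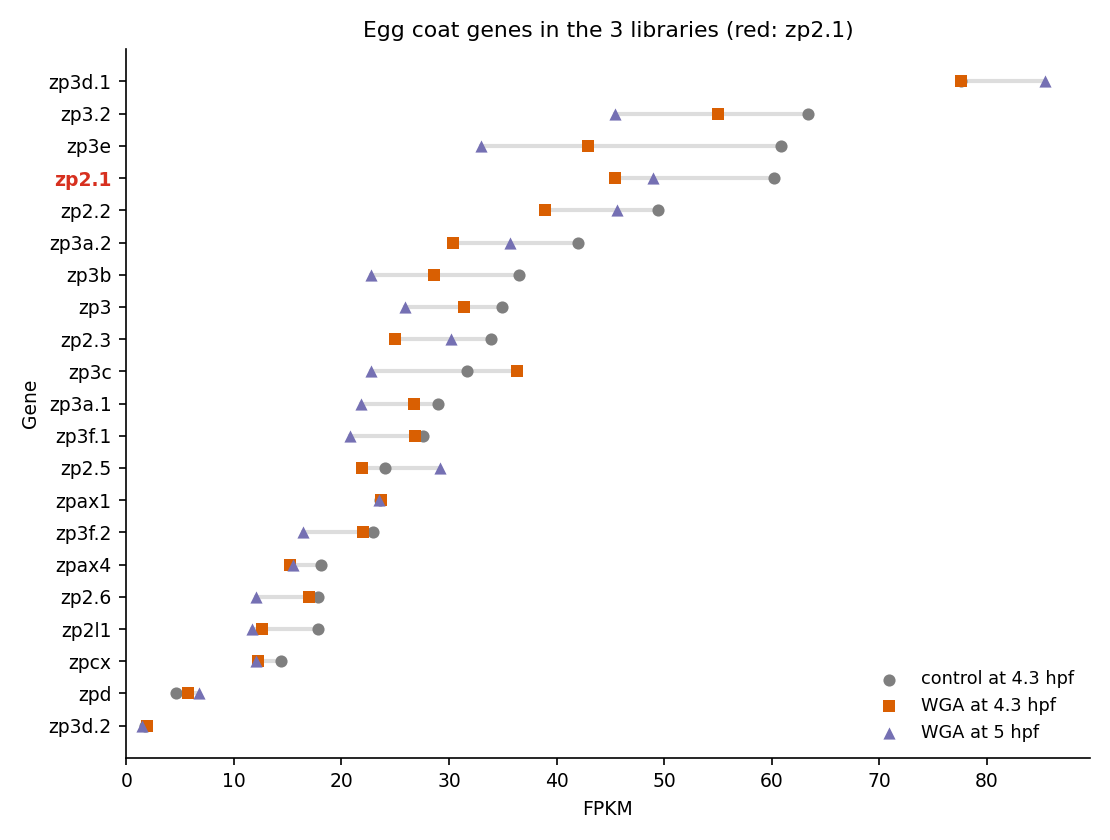
FPKM (x axis, from 0) of the 21 measured egg coat genes in the 3 libraries, 1 marker per library, ordered by the control and labelled by current NCBI symbol. For zp3d.1, zpax1 and zp3d.2 some markers lie on top of each other. Most zp3 genes had their lowest value in late WGA, and zp2.1 had its lowest in early WGA (45.45 FPKM).

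The ligand list set bmp15 and gdf9 beside other TGF-beta family ligands of the egg and early embryo. Of 10 measured ligand genes 4 passed 2-fold downward and 1 upward at the matched time (median -0.01, positive under TPM and ribosomal protein scaling). Under the latter 3 passed downward and 3 upward. The 10 genes include bmp15 and gdf9. Without them the median of the other 8 was -0.63 as deposited. With the filter at 5 FPKM the list held 8 genes, with a median of -0.63 and 0 past 2-fold upward. Of the lower members, bmp7a and bmp2b encode ventralising ligands. bmp7a was at 28.45 FPKM in the control, 3.7 FPKM in early WGA and 7.51 FPKM in late WGA, and bmp2b at 32.98, 7.11 and 6.86 FPKM. The others were the Nodal ligand genes ndr2 (4.01-fold) and ndr1 (log2 ratio -1.19). gdf6a was higher, at 1.28, 4.42 and 3.79 FPKM.

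The ligand gene gdf3, also called vg1 and stored by the oocyte, was nearly level at 358.45, 339.44 and 331.8 FPKM. Its level was 24.4 times that of bmp15 in the control, 12.9 times in early WGA and 22.1 times in late WGA. At the matched stage bmp2b and bmp7a were the 2 lower and gdf6a the 1 higher of 10 members (median -0.04, 0.02 under TPM and 0.37 under ribosomal protein scaling). Without bmp15 and gdf9 the median of the other 8 was -0.51 as deposited. ndr2 was 2.02-fold higher in late than in early WGA, while bmp15 and gdf9 had the lowest ratios of the list, at -0.77 and -0.44. The list median there was 0.05, and negative with no filter, with the filter at 5 FPKM and under ribosomal protein scaling. As deposited and without bmp15 and gdf9 it was 0.21.

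In mammals Bmp15 and Gdf9 signal through the type II receptor BMPR2, with BMPR1B for Bmp15 and TGFBR1 for Gdf9. The type II genes bmpr2a and bmpr2b were near 0 in every library, at 0.04 to 0.12 FPKM. The type I gene tgfbr1a was at 0.71, 0.18 and 0.41 FPKM and tgfbr1b at 1.24, 0.17 and 0.34 FPKM in the control, early WGA and late WGA. Of the BMPR1B genes, bmpr1ba was at 11.57, 23.58 and 15.18 FPKM, the order of bmp15. The other, bmpr1bb, was at 3.62, 2.46 and 2.83 FPKM, the opposite order. Over the receptor list 2 of 13 genes passed 2-fold upward at the matched time and 0 downward (median 0.15). Of all genes 7.21% passed upward and 8.97% downward. Upward the list had 6 under ribosomal protein scaling (median 0.86), 3 under TPM and 1 under median-of-ratios scaling. The 2 that passed as deposited were the activin receptor gene acvr2aa, at 6.51, 20.03 and 19.68 FPKM, and the BMP type I receptor gene bmpr1ab, at 3.03, 7.15 and 5.36 FPKM. At the matched stage acvr2aa alone was higher of 13 members (median 0.01, negative with no filter and under median-of-ratios scaling). From early to late WGA 0 of 12 differed (median -0.05, slightly positive under median-of-ratios scaling).

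Smads carry these signals into the nucleus. Of 9 measured, 2 passed 2-fold upward and 1 downward at the matched time (median 0.31), against 4 and 1 under ribosomal protein scaling. Of all genes 7.21% passed upward and 8.97% downward before that scaling. smad2, which relays activin and Nodal signals, was at 75.91 FPKM in the control, 161.73 FPKM in early WGA and 135.12 FPKM in late WGA. smad3b was at 0.95, 3.17 and 2.23 FPKM. The inhibitory smad7 was at 9.25, 1.79 and 1.82 FPKM, and was the 1 gene of 9 past 2-fold at the matched stage (3.63-fold lower, list median 0.05). There 2 passed upward under TPM and 3 under ribosomal protein scaling. From early to late WGA 0 of 9 differed by 2-fold (median -0.20, and 0 with no filter). Of genes that process or bind the ligands, 0 of 5 differed by 2-fold in any comparison. Their medians were -0.11, -0.22 and -0.02, of which the ratios to control were positive under ribosomal protein scaling and the last under median-of-ratios scaling. The pro-protein convertase gene pcsk6 was at 17.85, 15.33 and 15.22 FPKM.

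Of 11 measured regulators of the oocyte itself, 3 passed 2-fold upward at the matched time and 0 downward, with a median of 0.32. Of all genes 7.21% passed upward and 8.97% downward. Under ribosomal protein scaling 5 of the 11 passed upward, beside 4101 of 14263 genes. A positive ratio was seen in 10 of 11, beside 52.2% of all genes, both as deposited. The exception was ybx1 (log2 ratio -0.91), at 843.97 FPKM in the control, 447.46 FPKM in early WGA and 572.35 FPKM in late WGA. The share of all genes depends on the scaling, since their median log2 ratio was 0.67 under ribosomal protein scaling. Transcripts of figla, the basic helix-loop-helix factor known in mouse to switch on ZP genes, were at 4.77, 6.21 and 6.06 FPKM in the control, early WGA and late WGA. Those of nobox, a homeobox factor known in mouse to act upstream of Gdf9 and Bmp15, were at 7.45, 8.7 and 6.74 FPKM. The LIM homeobox gene lhx8a was at 6.91, 18.3 and 12.84 FPKM, 2.44-fold higher at the matched time. The other higher members were the cytoplasmic polyadenylation factor gene cpeb1b (5.11-fold) and the T-box gene eomesa (log2 ratio 1.27).

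cpeb1b and eomesa were also, at the matched stage, the 2 higher members of 11 and 0 were lower (median 0.07). From early to late WGA the median was -0.33, with the same sign under every scaling, and 4 of 11 had a positive ratio, near the 41.2% of all genes. The 1 gene past 2-fold, with 0 under median-of-ratios and 3 under ribosomal protein scaling, was the zygote arrest gene zar1l, at 53.15 FPKM in the control, 57.31 FPKM in early WGA and 27.91 FPKM in late WGA. The next lowest were org (oogenesis-related gene), at 67.91, 72.74 and 38.68 FPKM, and the meiotic kinase gene mos, at 15.42, 24.22 and 13.94 FPKM. Like bmp15, mos was highest in early WGA.

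**Figure D5:**
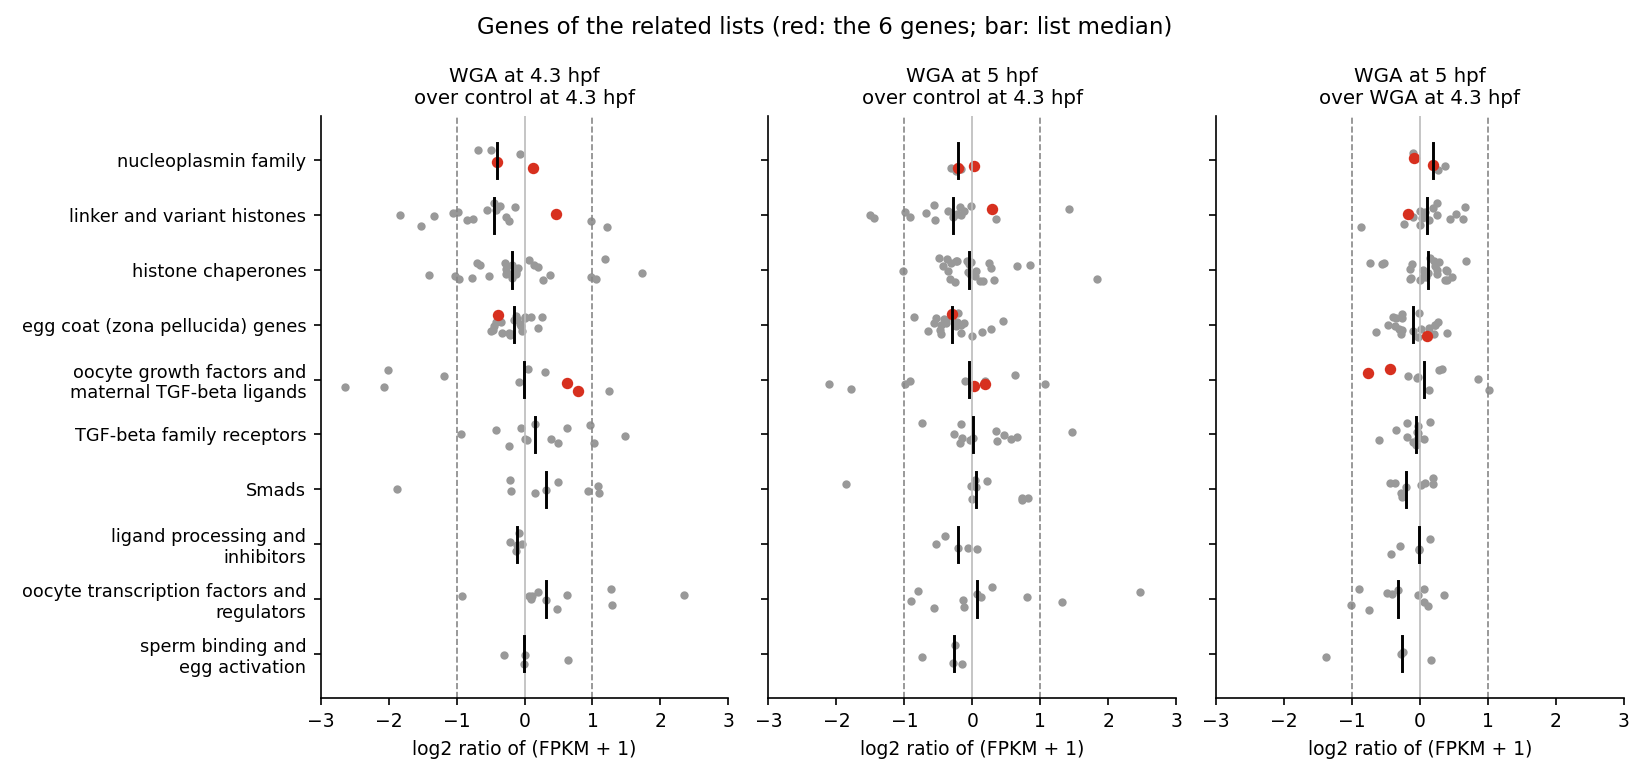
log2 ratio of (FPKM + 1) (x axis) of each measured gene in 10 related lists (y axis) for the 3 comparisons. Each dot is a gene, red dots are the 6 genes, black bars are list medians and dashed lines mark 2-fold. Red dots stay within the dashed lines. In the ligand list, bmp15 and gdf9 come next below gdf6a at the matched time and lowest between the WGA libraries.

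Markers were checked for what the libraries hold. All 8 early embryo markers were present, at 18.67 to 1094.35 FPKM in the control. In early WGA 5 of 8 passed 2-fold downward and 1 upward against the control, beside 8.97% and 7.21% of all genes. Follicle cells, which surround the oocyte, were followed with 9 marker genes, whose summed level was 35.34 FPKM in the control, 45.93 FPKM in early WGA and 47.91 FPKM in late WGA. Most of that sum was the steroid enzyme gene cyp17a1, at 30.7, 44.4 and 46.42 FPKM. nr5a1a was at 3.47, 0.62 and 0.62 FPKM. The other 7 were at most at 0.48 FPKM in any library, and fshr and foxl2 were listed at 0 in the control and in late WGA. The part of these markers in the levels of the 6 genes was not tested.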

How the data were processed

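Poly(A) RNA of 3 zebrafish libraries, 1 per group, was profiled by the authors. The authors deposited FPKM values of 25386 genes, each row with an NCBI Gene number and a symbol. RSEM 1.2.8, Bowtie2 2.2.5, Trimmomatic 0.36 and the GRCz11 build are listed in the submitters' processing notes, without roles or settings. No annotation release was found in these notes or the labels. If RSEM made the values, reads that match several genes were shared by estimate. FPKM is relative to each library's total, and in poly(A) RNA the amount of a transcript and its tail length cannot be told apart. Columns were matched to libraries by name.

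Ratios are log2 of (FPKM + 1), a pseudocount of 1 that understates the change of low genes. The call rule was 2-fold, if a gene reached 1 FPKM in a compared library, with no p-value. The absolute depth is unknown, so no counting interval is given. The ratio of low FPKM values peaked at 0.969 for early WGA (4.3 hpf) against the control (2942 genes) and at 1 for late (5 hpf) against early WGA, with no clear peak for late WGA against the control. The number of genes above 0 was 22790 in the control, 21815 in early and 21892 in late WGA. Relative depth was not settled from these values. Sums were 430459 FPKM in the control, 401114 FPKM in early and 411178 FPKM in late WGA.

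The 6 genes and 12 lists (187 entries) were chosen with earlier results of these data known. Of the entries 174 matched, 27 of them through the NCBI gene table of assembly GRCz12tu, and the lists hold 162 genes. Named genes are the 6, up to 4 per list and comparison with the largest absolute ratio, those that complete a count of 5 or fewer, and the 3 nearest in pattern to each of the 6, of which the nearest are reported. Others (bmpr1bb, zp2.2, zp3d.1, gdf3, bmpr2a, bmpr2b, tgfbr1a, figla, nobox, fshr, foxl2, si:zfos-1505d6.3) were named after their values were seen. Not every gene the rule names is reported, and 1 gene of the histone list is counted but not reported here. The alternatives were pseudocounts of 0.1 and 0, no filter and a filter at FPKM 5, and scaling to TPM, to median-of-ratios factors and to 78 ribosomal protein genes. The pseudocount stayed at 1 after scaling. TPM values are larger than FPKM here (divisors 0.430 for the control, 0.401 for early and 0.411 for late WGA). The TPM setting therefore also weakened the pseudocount, and the 2 changes were not separated. Calculations used Python 3.11.15, pandas 2.3.3 and numpy 2.4.6, and the ratio and call steps were tested on simulated data.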

Additional observations from a re-analysis of the deposited data

How the results depend on the processing

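The 6 genes gave 18 ratios, and each kept its sign and its side of 2-fold with a pseudocount of 0.1 or none, without the filter, with the filter at FPKM 5 and under TPM. Under median-of-ratios scaling 1 of 18 changed sign, that of bmp15 at the matched stage (-6.95e-05). Under ribosomal protein scaling 8 of 18 kept both. At the matched time h1m (1.18), bmp15 (1.49) and gdf9 (1.31) passed 2-fold, which made 3 of 6 higher, beside 4101 of 14263 genes. There npm2b (0.31) and zp2.1 (0.31) turned positive. At the matched stage npm2b (0.21) and zp2.1 (0.13) turned positive. Between the WGA libraries npm2b (-0.10) and zp2.1 (-0.18) turned negative. There bmp15 (-1.07) passed 2-fold, as the 1 lower gene of 6, beside 275 of 13478 genes. That scaling moved the median of all genes to 0.67, 0.36 and -0.32 in the 3 comparisons.

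Counts over all genes moved more. At the matched time (1028 higher, 1280 lower) there were 1577 higher without a pseudocount, 783 lower at FPKM 5, 1589 higher under TPM, and 4101 higher and 823 lower under ribosomal protein scaling (16.7% of those counted lower, against 55.5%). At the matched stage (751 higher, 1122 lower) there were 1696 lower with a pseudocount of 0.1, 1133 higher and 1733 lower without one, 723 lower at FPKM 5 and 1753 higher under ribosomal protein scaling. Between the WGA libraries (104 higher, 48 lower) there were 207 higher and 158 lower with a pseudocount of 0.1, 221 and 184 without one, 49 higher at FPKM 5, 117 lower under TPM and 275 lower under ribosomal protein scaling. The filter removes genes by its construction. For the other settings the cause was not tested.

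No paired analysis was possible because each group has 1 library. For the same reason no library was left out. The depth is unknown, so counting error was not estimated.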

Other observations

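A further list of genes was drawn up under the heading of sperm binding and egg activation. Of 4 measured, 0 differed by 2-fold at the matched time and 0 at the matched stage, with medians of -0.01 (positive under TPM and ribosomal protein scaling, 0 with the filter at FPKM 5) and -0.27 (0.11 under ribosomal protein scaling). bncr (listed as LOC101885477), the Bouncer gene whose product lets sperm enter the fish egg, was at 227.23 FPKM in the control, 183.68 FPKM in early WGA and 204.69 FPKM in late WGA. That is the order of npm2b and zp2.1. The carbonic anhydrase gene ca15b was at 32.07, 50.36 and 18.72 FPKM, and passed 2-fold downward from early to late WGA (log2 ratio -1.38), the 1 of 4 to do so (list median -0.26). The tetraspanin gene cd9b was at 66.23 FPKM in the control, 66.23 FPKM in early WGA and 55.57 FPKM in late WGA.

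The adjacent genes by NCBI's gene order (assembly GRCz12tu), named after their values were seen, had varied patterns. The gene next to h1m on one side, ephb4a, was at 3.88, 4.47 and 5.58 FPKM in the control, early WGA and late WGA. The genes next to npm2a, adrb3a and got1l1, were at most at 0.24 FPKM in any library. Of those next to npm2b, myo18b was at most at 0.21 FPKM and sez6l was at 8.98, 10.02 and 9.78 FPKM. got2b, next to bmp15, was at 31.15, 33.94 and 23.18 FPKM, and nudt22, next to gdf9, was at 8.43, 15.61 and 14.75 FPKM, while sowahab, on its other side, was listed at 0 throughout. Within the zp2 cluster si:zfos-1505d6.3 was at 42.48, 24.28 and 32.59 FPKM, lowest in early WGA as zp2.1 was.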
